A study of Mus musculus with 5 samples.

Results

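The genes described here encode 7 transcription factors of the pancreatic duct and of the embryonic trunk epithelium from which ducts and endocrine cells arise: Sox9, Onecut1, Onecut2, Glis3, Hhex, Prox1 and Sox4. They were chosen by name, and all 7 were found among the 16992 gene symbols that the 5 deposited tables share. The RNA came from fresh pancreas of adult C57BL/6 mice, 2 to 4 months old, from which 2 populations were sorted. CD133(positive)CD71(negative) has 2 libraries, numbered 1 and 2 in their titles. CD133(high)CD71(low) has 3, of which 2 are numbered and the last, called library 3 here, is not. Prom1 encodes CD133, a membrane glycoprotein of duct and other epithelial cells, and Tfrc encodes CD71, the receptor for transferrin. The group names are those of the sample titles, while the marker field of the same labels calls the CD133(high)CD71(low) cells CD71 plus. No label names a genetic change or a treatment, and none says how many mice were pooled. It is also not stated whether the libraries of a group are separate sorts, and the p-values given here rest on the variation among libraries alone, some of which may be technical.

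In the embryonic pancreas the trunk epithelium expresses Sox9 together with the Onecut and Glis factors, and cells that keep this programme become duct while those that switch on Neurog3 become endocrine. Sox9 encodes a Sox protein with a DNA-binding HMG box that stays on in adult duct cells, and Sox4 encodes a member of another Sox subgroup that is also used in endocrine development. Onecut1, also called Hnf6, and its paralogue Onecut2 encode proteins with 1 CUT domain and a homeodomain. Glis3 encodes a zinc finger protein of the Gli-related family that is needed for normal duct and beta cell development and is localized to the primary cilium. Hhex and Prox1 encode homeodomain proteins that act early in the ventral foregut and liver and pancreas buds. Hhex is also used in endothelial and blood cells, and Prox1 is the fate switch of lymphatic endothelium.

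Promoter sequence was found in the RefSeq table (GRCm38.p6) for 5 of the 7 genes, Hhex, Onecut1, Sox4, Glis3 and Prox1. Stretches of 3 of them are shown, 5′ to 3′ on the strand of the gene and ending before every annotated start, because these genes span the range of base composition of the group and include the one whose levels are ordered differently from the others. Capitals mark CCAAT boxes and GC boxes (GGGCGG) on either strand. The stretches are chr19:37434591-37434809 on the plus strand for Hhex, chr9:74861671-74861920 on the plus strand for Onecut1 and chr13:28953714-28953949 on the minus strand for Sox4.
Hhex: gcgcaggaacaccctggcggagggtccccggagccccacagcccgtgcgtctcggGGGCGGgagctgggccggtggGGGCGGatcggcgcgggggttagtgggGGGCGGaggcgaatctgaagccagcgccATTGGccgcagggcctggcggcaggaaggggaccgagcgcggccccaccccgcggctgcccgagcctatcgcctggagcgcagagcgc
Onecut1: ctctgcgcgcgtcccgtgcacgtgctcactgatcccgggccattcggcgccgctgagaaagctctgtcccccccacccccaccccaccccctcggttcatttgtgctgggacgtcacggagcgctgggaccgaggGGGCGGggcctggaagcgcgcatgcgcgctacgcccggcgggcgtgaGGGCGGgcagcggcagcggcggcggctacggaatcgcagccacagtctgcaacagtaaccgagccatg
Sox4: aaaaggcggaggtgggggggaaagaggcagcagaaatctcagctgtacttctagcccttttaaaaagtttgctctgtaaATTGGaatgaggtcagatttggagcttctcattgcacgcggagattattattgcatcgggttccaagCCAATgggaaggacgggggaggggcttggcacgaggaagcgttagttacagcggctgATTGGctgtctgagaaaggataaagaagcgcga
The Hhex stretch held 3 GC boxes and 1 CCAAT box, the Onecut1 stretch 2 GC boxes and no CCAAT box, and the Sox4 stretch 3 CCAAT boxes and no GC box. Over the 250 bases before the start, G and C made up 76.0% of Hhex, 71.6% of Onecut1 and 50.8% of Sox4, against a median of 52.4% over all 32851 promoters of the table. A GC box was present in 5 of the 6 windows of these 5 genes (Prox1 has 2 starts) and in 32.7% of all windows, and a CCAAT box in 2 of 6 and in 33.8%. The TATA box letters TATAAA were found in 1 of 6 windows, at Prox1, and in 12.4% of all. The Onecut core ATTGAT was found on either strand in 0 of 6 windows and in 6.72% of all. For the Sox core ACAATG the counts were 0 of 6 and 10.7%. For the Foxa core TGTTTAC they were 0 of 6 and 3.17%. No motif searched contains another. A match describes letters, and no binding was measured.

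Levels are in RPKM, which divides a gene's reads by its transcript length and by the reads of the library. The unit was inferred from the tables. Fold changes give CD133(high)CD71(low) relative to CD133(positive)CD71(negative), as a difference of log2(RPKM + 1) values, which understates changes of low genes, and were tested with limma over 11769 genes with Benjamini-Hochberg adjustment. Depth, read from the steps of low values, was 19.7 to 41.5 M reads per library. The table of library 3 lists another set of gene symbols than the other 4, and this library stood apart from its group, with a Pearson r across genes of 0.957 and 0.961 to libraries 1 and 2, which had 0.996 between them. Of the sort markers, Prom1 measured 45.8 and 48.8 RPKM against 72.8, 74.7 and 133.3, and Tfrc 4.00 and 4.36 against 5.34, 6.84 and 12.2. Neither passed over all 5 libraries (limma adjusted p = 0.0909 and 0.151). Without library 3 Prom1 passed at a log2 difference of 0.63 (limma adjusted p = 0.000208), beside 40.9% of all genes called higher. Duct markers were present in both populations: Krt19 measured 74.6 and 81.4 RPKM against 155.7, 142.0 and 149.2, and the sum over 15 duct markers was 3670 and 3905 against 5328, 5335 and 7454. Spp1 made up most of each sum, at 2286 and 2425 against 2895, 2963 and 4846, and did not pass (limma adjusted p = 0.227). Cftr, also a duct marker, overlapped between the groups, at 5.87 and 7.36 against 5.95, 5.84 and 18.2. Acinar transcripts exceeded the duct markers in every library, with a sum over 12 acinar markers of 243156 and 216794 RPKM against 201167, 205027 and 89412.

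All 7 duct lineage factors had higher levels in each CD133(high)CD71(low) library than in either CD133(positive)CD71(negative) library. Sox9, Onecut1, Glis3, Hhex and Sox4 rose at 1.70 to 2.02 times the level, and Prox1 at 1.76 times the level did not pass the test over all 5 libraries. Onecut2 was at a low level throughout and was not among the genes tested. In sorted bulk RNA, fewer cells of a type and less RNA per cell cannot be told apart. Complete separation of the groups in this direction was common, at 58.2% of all genes tested, and 12% separated in the other. Calls were rarer. By limma 6.25% of genes were called higher and 7.22% lower, beside 5 of the 6 tested members higher and 0 lower (limma, unadjusted p under 0.05 for 6 higher and 0 lower).

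**Figure D1:**
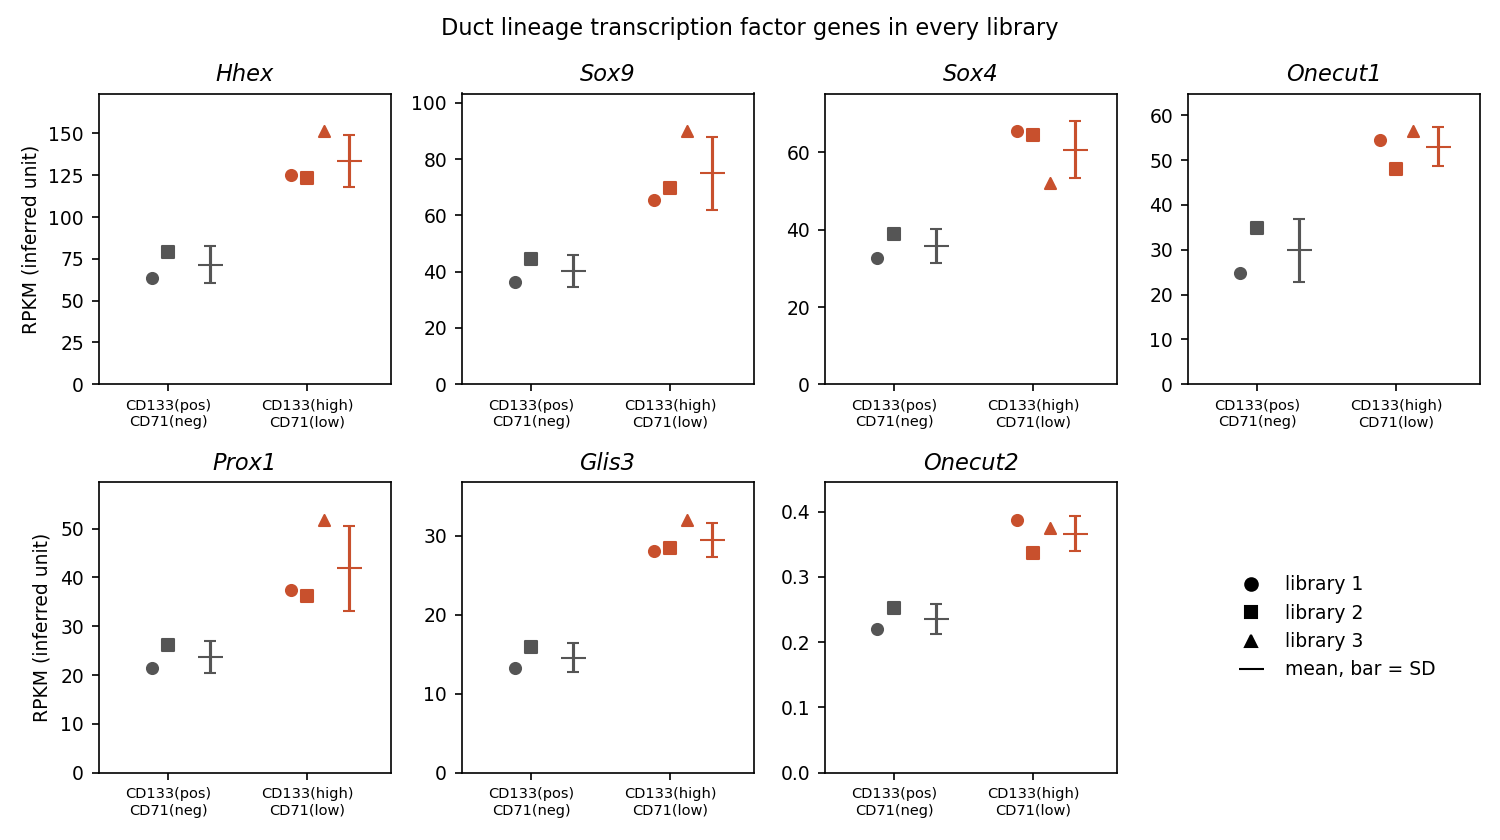
RPKM of the 7 genes in every library, with CD133(positive)CD71(negative) in grey and CD133(high)CD71(low) in orange, symbols for library numbers, and a horizontal mark with bar for mean and SD. In every panel the orange points lie above the grey ones, and only in the Sox4 panel is library 3 the lowest orange point.

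Hhex was the highest of the group. It measured 63.6 and 79.2 RPKM in CD133(positive)CD71(negative), against 125.4, 123.4 and 151.2 in CD133(high)CD71(low) (chromosome 19, 37434810 to 37440731, plus strand, GENCODE M21 on GRCm38). Every CD133(high)CD71(low) library lay well above both others, and library 3 was the highest. The means were 71.4 ± 11.1 (SD, n = 2) and 133 ± 15.5 (n = 3), and the log2 difference was 0.89 (SE 0.16, limma adjusted p = 0.0249).

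Sox9, the defining factor of adult duct cells, came second in every library. It measured 36.2 and 44.3 RPKM against 65.5, 69.7 and 89.8 (chromosome 11, 112782224 to 112787760, plus strand). The groups did not overlap, and library 3 was again the highest. Sox9 averaged 40.3 ± 5.77 and 75.0 ± 13.02, and the log2 difference was 0.87 (SE 0.19, limma adjusted p = 0.0364).

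Sox4 measured 32.6 and 38.9 RPKM against 65.5, 64.5 and 52.2 (chromosome 13, 28948919 to 28953713, minus strand). The groups did not overlap, but library 3 was the lowest of its group. The means were 35.8 ± 4.47 and 60.7 ± 7.41, and the log2 fold change was 0.74 (SE 0.16, limma adjusted p = 0.0372). A lincRNA gene, Gm26735, lies over part of Sox4 on the opposite strand, and no source used here says whether reads were counted by strand.

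Onecut1 measured 24.9 and 34.9 RPKM against 54.4, 48.1 and 56.4 (chromosome 9, 74861921 to 74891781, plus strand). The CD133(positive)CD71(negative) libraries differed most for this gene, library 2 being 1.40 times library 1. The means were 29.9 ± 7.07 and 53.0 ± 4.35, and the log2 difference was 0.82 (SE 0.18, limma adjusted p = 0.0388). The lincRNA gene Gm20649 overlaps Onecut1 on the same strand.

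Onecut2, its paralogue, measured 0.22 and 0.25 RPKM against 0.39, 0.34 and 0.38 (chromosome 18, 64340020 to 64400987, plus strand). Onecut1 exceeded it 113 to 150 times. Onecut2 lay at the 18.9th to 26.2th percentile of all genes of a library and under the mean of 1 RPKM required for testing. Without that filter its log2 fold change was 0.14 (SE 0.034, limma adjusted p = 0.0544), a size held down by the pseudocount of 1, and the ratio of its mean levels was 1.55. Onecut3, the third gene of the family, was listed at 0 in 2 libraries and at 0.0084 or less in the others.

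Prox1 measured 21.4 and 26.1 RPKM against 37.5, 36.2 and 51.8 (chromosome 1, 190118035 to 190170714, minus strand). Library 3 lay 1.40 times above the mean of libraries 1 and 2, the widest such gap of the 7 genes. The means were 23.8 ± 3.29 and 41.8 ± 8.64, and the log2 difference was 0.78 (SE 0.20, limma adjusted p = 0.0588). Without library 3 it passed, at 0.62 (limma adjusted p = 0.00108), beside 40.9% of all genes called higher. The antisense genes Prox1os and Gm28172 overlap its locus. Of 6 markers of lymphatic endothelium, where Prox1 is best known, the sum was 12.9 and 11.8 RPKM against 12.5, 10.8 and 12.2, and 2 were tested. Pdpn, encoding podoplanin, which epithelial and stromal cells also make, rose from 4.92 and 4.53 to 9.84, 9.36 and 11.4 (limma adjusted p = 0.0113). Flt4, a receptor gene, fell from 5.74 and 5.48 to 1.82, 1.06 and 0.50 (limma adjusted p = 0.0175). Ccl21a measured at most 1.59 RPKM in any library, Reln at most 0.41, Lyve1 at most 0.40 and Mmrn1 at most 0.087. The part of lymphatic cells in the Prox1 level was not tested.

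Glis3 had the largest relative difference. It measured 13.3 and 15.9 RPKM against 28.1, 28.4 and 32.0 (chromosome 19, 28258851 to 28680077, minus strand). The CD133(high)CD71(low) libraries lay close together and far above the other group. The means were 14.6 ± 1.81 and 29.5 ± 2.19, a ratio of 2.02 and a log2 difference of 0.97 (SE 0.13, limma adjusted p = 0.0106). The sense-intronic gene 4933413C19Rik overlaps Glis3 on the same strand and the lincRNA gene D930032P07Rik on the opposite strand. These overlaps are of whole gene spans, and whether reads of either gene entered the Glis3 value was not examined.

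By RPKM, which is per length, the levels ran Hhex, Sox9, Sox4, Onecut1, Prox1, Glis3 and Onecut2 in all 4 numbered libraries, and in library 3 only Sox4 and Onecut1 changed places. Hhex stood clear of Sox9, Prox1 of Glis3 and Glis3 of Onecut2 in both groups. Sox9 and Sox4 overlapped in CD133(positive)CD71(negative), and the lowest Sox9 library and the highest Sox4 library of CD133(high)CD71(low) were both at 65.5. Sox4 and Onecut1, and Onecut1 and Prox1, overlapped within each group. In CD133(high)CD71(low) the 6 genes above Onecut2 lay at the 90.5th to 98.9th percentile of all genes of a library, and in CD133(positive)CD71(negative) at the 82.3th to 98.0th.

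The calls depended on the libraries and settings. Without library 3 all 6 tested members were higher (limma adjusted p from 6.93e-05 to 0.00185), but so were 40.9% of all genes tested, and 12.2% were lower. Without library 1 of CD133(high)CD71(low) 1 of 6 (Glis3) was called, beside 0.753% of all genes higher and 6.63% lower. Without library 2 0 of 6 were, beside 0.338% and 4.75%, with 6 of 6 at an unadjusted limma p under 0.05 both times. Without library 1 or 2 of CD133(positive)CD71(negative), which leaves that group a lone library assumed to vary like the rest, 0 of 6 were called, and the unadjusted limma p was under 0.05 for 5 and 6 of them. Of all genes 0% and 0.00855% were then higher and 1.34% and 1.32% lower. With a pseudocount of 0.1 5 of 6 were higher, beside 6.33% of all genes higher and 6.92% lower. With no filter 5 of 7 were, beside 5.67% and 10.2%, and with a mean of at least 5 RPKM 5 of 6, beside 6.44% and 4.02%. Quantile normalization gave 3 of 6, beside 7.15% and 8.72%. A replicate block on the 4 numbered libraries gave 6 of 6, beside 45.1% and 13.2%.

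The members were also set against all genes. The median log2 fold change of the 6 tested members was 0.85, against 0.31 for all genes tested after leaving out 7 keratin genes, a difference of 0.54. Of all 11769 genes, 5.29% had a log2 fold change at or above that of Sox4, the lowest of the 6. Since the median of all genes was itself above 0, scaling was changed. Median-of-ratios scaling brought the median of all genes to 0.06 and that of the members to 0.56, and Sox9, Glis3 and Hhex stayed called (3 of 6, beside 2.65% of all genes higher and 9.25% lower), while Onecut1 and Sox4 did not pass (limma adjusted p = 0.0928 and 0.275). With this scaling and without library 3 the median of the members was 0.60 and 6 of 6 were called, beside 15.2% of all genes higher and 16.5% lower.

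**Figure D2:**
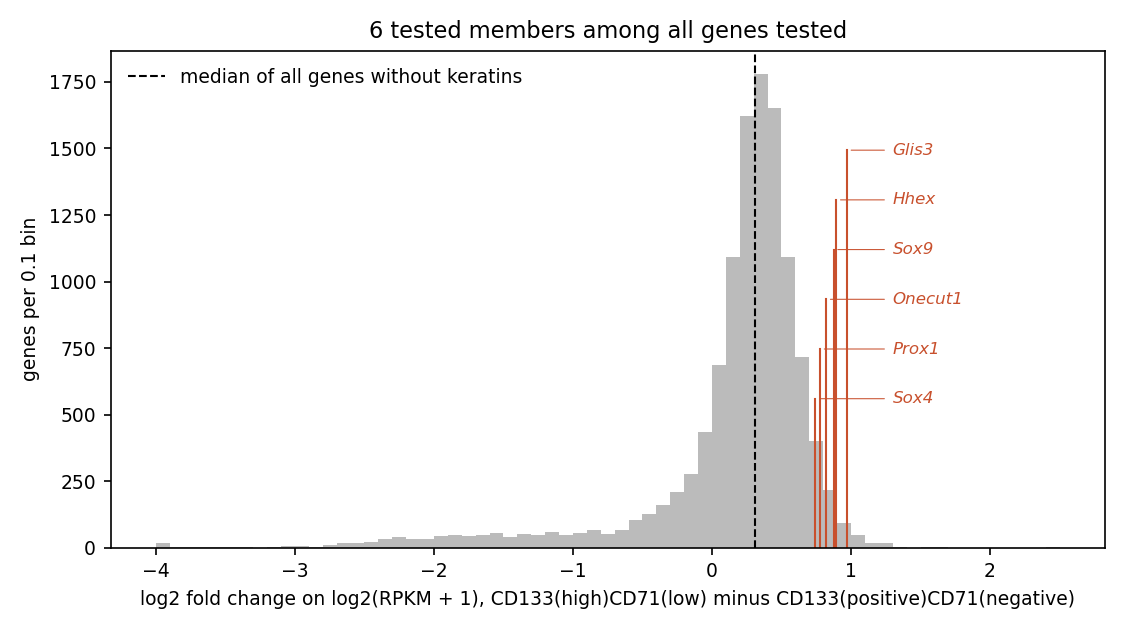
Histogram of the log2 fold change of the 11769 genes tested (x axis, log2(RPKM + 1) scale; y axis, genes per bin; values below the axis are in its lowest bin), with the 6 tested members as vertical lines whose heights only separate the names. The dashed line is the median of all genes without keratins at 0.31, and the 6 members lie to its right between 0.74 and 0.97.

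CD133(high)CD71(low) cells also carried more of other epithelial transcripts, so each library was divided by the geometric mean of 7 epithelial genes that are neither keratins nor members: the adhesion and junction genes Epcam, Cdh1, Cldn3, Cldn7 and Dsp, the splicing factor gene Esrp1 and the transcription factor gene Grhl2. That mean was 42.8 and 47.1 RPKM against 76.4, 76.5 and 88.7, a ratio of 1.79. Relative to this panel none of the 6 tested members differed between the groups by limma (0 higher and 0 lower, also at an unadjusted p under 0.05), while 0.228% of all genes were called higher and 49.7% lower. The median of the members was 0.027 and that of all genes -0.41.

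The intervals bound what remained. Sox9 measured 84.4% and 94.2% of the panel against 85.6%, 91.1% and 101.2%, so the groups overlapped, with a log2 difference of 0.051 (95% interval -0.25 to 0.35, limma adjusted p = 0.747). Hhex measured 148.4% and 168.2% against 164.0%, 161.3% and 170.4%, a difference of 0.064 (-0.22 to 0.35, limma adjusted p = 0.663). Onecut1 was at 58.0% and 74.1% against 71.2%, 62.8% and 63.5%, a difference of 0.0037 (-0.35 to 0.36, limma adjusted p = 0.984).
For Prox1, at 50.1% and 55.4% against 49.1%, 47.3% and 58.3%, the difference was -0.036 (-0.36 to 0.29, limma adjusted p = 0.832). Sox4 was at 76.1% and 82.7% against 85.6%, 84.2% and 58.8%, and its interval was the widest (-0.56 to 0.41 around -0.077, limma adjusted p = 0.759). Of the 6 tested members Glis3 alone kept its groups apart, at 31.0% and 33.7% against 36.7%, 37.1% and 36.1%. Its difference of 0.17 (-0.055 to 0.40) did not pass (limma adjusted p = 0.161). Onecut2, too low to be tested, was at 0.513% and 0.536% against 0.507%, 0.439% and 0.423%, so its groups lay apart in the lower direction. Without library 3 the Glis3 difference was 0.18 (0.0069 to 0.36, limma adjusted p = 0.0516), the sole one at an unadjusted p under 0.05, and 0 of 6 members were called, beside 0.712% of all genes higher and 83.2% lower.

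**Figure D3:**
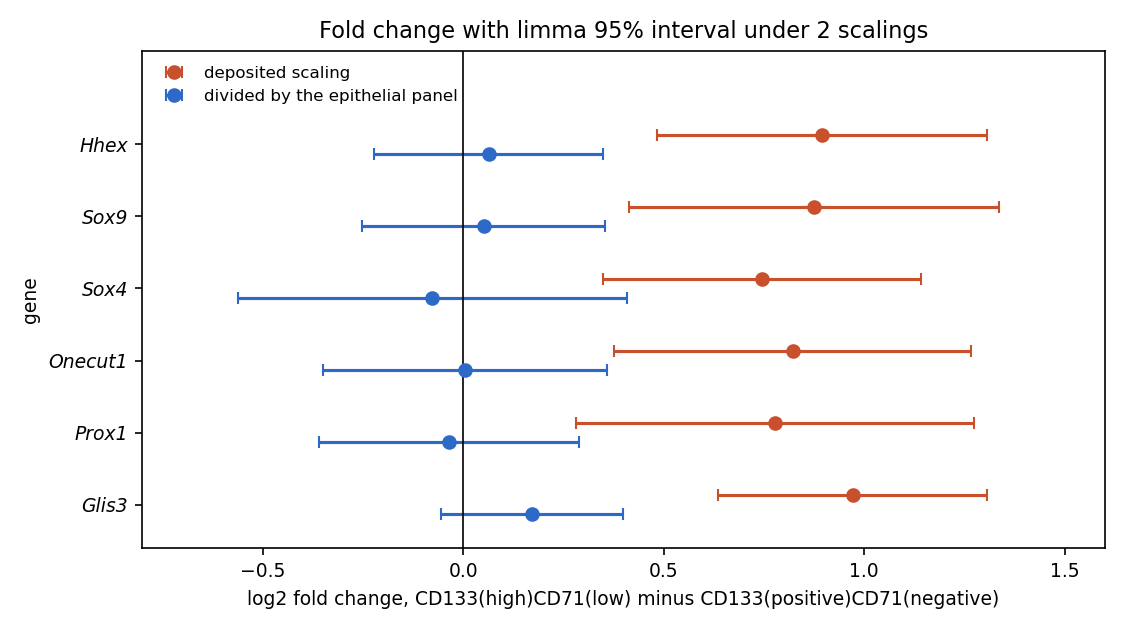
Log2 fold change (x axis) of the 6 tested members (y axis) with the limma 95% interval, in orange as deposited and in blue after dividing each library by the epithelial panel. The orange intervals lie above 0 and the blue ones all include 0, with Glis3 the farthest to the right at 0.17.

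**Figure D4:**
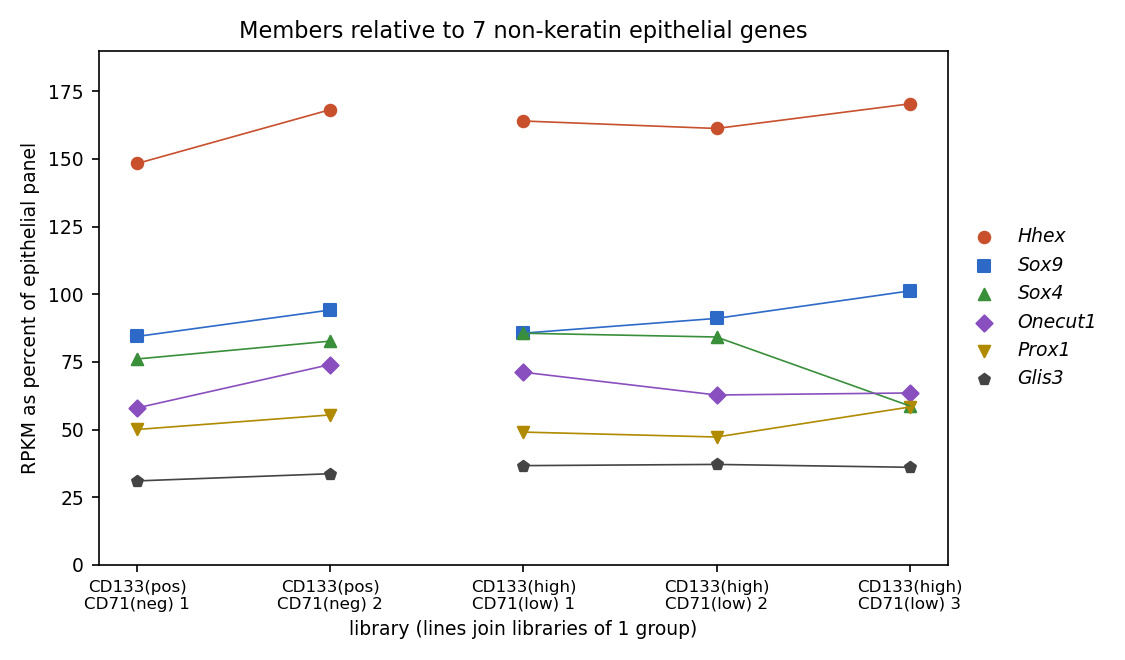
RPKM of each tested member as a percent of the geometric mean of 7 epithelial genes (y axis) in the 5 libraries (x axis), with lines joining libraries of a group. Sox4 is at 76.1% to 85.6% in the numbered libraries and at 58.8% in library 3, where Onecut1 passes it.

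Markers of other cell types moved with the groups. The counts over all 5 libraries stand beside 6.25% of all genes called higher and 7.22% lower. The sum of 12 leukocyte markers was 1570 and 1538 RPKM against 65.8, 55.4 and 29.6, and all 10 that were tested fell. That of 9 blood endothelial markers was 694.1 and 645.4 against 192.8, 119.9 and 64.0, and all 9 fell. Of the mesenchymal and stellate list 5 of 7 tested members fell (sums of 227.0 and 203.3 against 80.6, 74.6 and 76.0). Vim made up most of each of these sums, at 142.5 and 126.3 against 59.9, 57.7 and 70.2. Every other gene of this list was at its lowest in library 3. Fn1, the next highest, measured 42.8 and 40.6 against 8.30, 6.69 and 3.85. No marker in these lists was at 0 in every library. Of the endocrine list 5 of 8 tested members fell, the hormone genes Sst, Ppy, Pyy and Gcg and the granule protein gene Chgb, and 0 rose (limma, also 5 and 0 at an unadjusted p under 0.05). The sum of the 13 endocrine markers was 1778 and 1613 against 1521, 1771 and 569. The insulin genes of this list did not pass over all 5 libraries (limma adjusted p = 0.722 for Ins2 and 0.630 for Ins1). Ins2 measured 731.6 and 507.6 RPKM against 1048, 1151 and 325.4, and Ins1 153.4 and 100.5 against 211.5, 274.4 and 70.5. Without library 3 these 2 were called higher and 5 of the list lower, beside 40.9% and 12.2% of all genes. Of 12 acinar markers 0 rose and 0 fell by limma (1 higher and 0 lower at an unadjusted p under 0.05). Amy2a5, Cela1, Cela2a, Ctrb1, Pnlip, Prss2 and Try4 still had non-overlapping lower groups, as did 12% of all genes tested. Nr5a2 had non-overlapping higher groups, and the other markers overlapped. The acinar sum was 243156 and 216794 RPKM against 201167, 205027 and 89412. All genes together summed to 532334 and 504563 against 503458, 503436 and 491015. The absence of calls therefore does not show equal acinar content. Without library 3 each tested member was higher by 0.62 to 0.91 on the log2 scale, beside a median of 0.20 for all genes without keratins and 40.9% of all genes called higher. With panel scaling of these libraries the median of the members was 0.035 and 0 of 6 were called, beside 0.712% of all genes higher and 83.2% lower. Leukocyte and endothelial cells can express Hhex. The part of these other cells in the differences of the duct factors was not tested.

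Library 3 set Sox4 apart from the other members. Relative to the mean of libraries 1 and 2 it was at 0.80 times for Sox4, and between 1.04 and 1.40 times for the other 6, beside 1.16 times for the epithelial panel. The ratio of Sox4 to Sox9 was 0.90 and 0.88 in CD133(positive)CD71(negative) and 1.00, 0.92 and 0.58 in CD133(high)CD71(low). Genes of several cell types were also lower in library 3 than in libraries 1 and 2, and the examples were picked with their values in view. Krt7, a keratin gene of duct cells, measured 76.7, 76.1 and 42.4 RPKM, and the acinar factor gene Ptf1a 8.37, 10.2 and 4.02. Pdx1 was at 16.1, 16.1 and 9.27 and Nkx6-1 at 12.4, 12.8 and 7.85. The insulin gene Ins2 was at 1048, 1151 and 325. Their part in the Sox4 level was not tested.

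Most other tested genes of the Sox family were lower. Of 18 other Sox genes 15 were in the tables and 8 were tested, of which 5 fell and 0 rose (2 higher at an unadjusted limma p under 0.05), against 7.22% of all genes called lower. The endothelial genes of the SoxF subgroup were among them: Sox18 measured 92.1 and 79.2 RPKM against 24.9, 13.7 and 5.80, and Sox17 21.6 and 22.2 against 5.16, 3.36 and 2.10. Sox7, the third of that subgroup, fell from 4.07 ± 0.43 to 0.65 ± 0.29. Blood endothelial markers fell between the same groups, as given above.
Sox10, the factor of Schwann cells and a close paralogue of Sox9, went from 2.71 ± 0.26 down to 0.12 ± 0.016, a difference of -1.73 (limma adjusted p = 0.000736). The sum of 5 Schwann markers was 16.1 and 14.3 against 2.51, 2.58 and 3.53. Sox8, the remaining gene of the SoxE subgroup, was at 0.18 RPKM or less in every library. Sox13 fell from 18.7 ± 0.074 to 7.58 ± 1.21. Sox5 (2.39 and 3.35 against 4.54, 5.17 and 7.60 RPKM) and Sox6 (2.66 and 2.96 against 4.19, 4.39 and 5.32) had non-overlapping groups without passing (limma adjusted p = 0.081 and 0.0588). Without library 3 both passed, beside 40.9% of all genes called higher. Sox11, the nearest relative of Sox4, was at 0.046 RPKM or less, and Sox12, the other gene of the SoxC subgroup, measured 1.79 ± 0.31 and 2.42 ± 0.48.

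**Figure D5:**
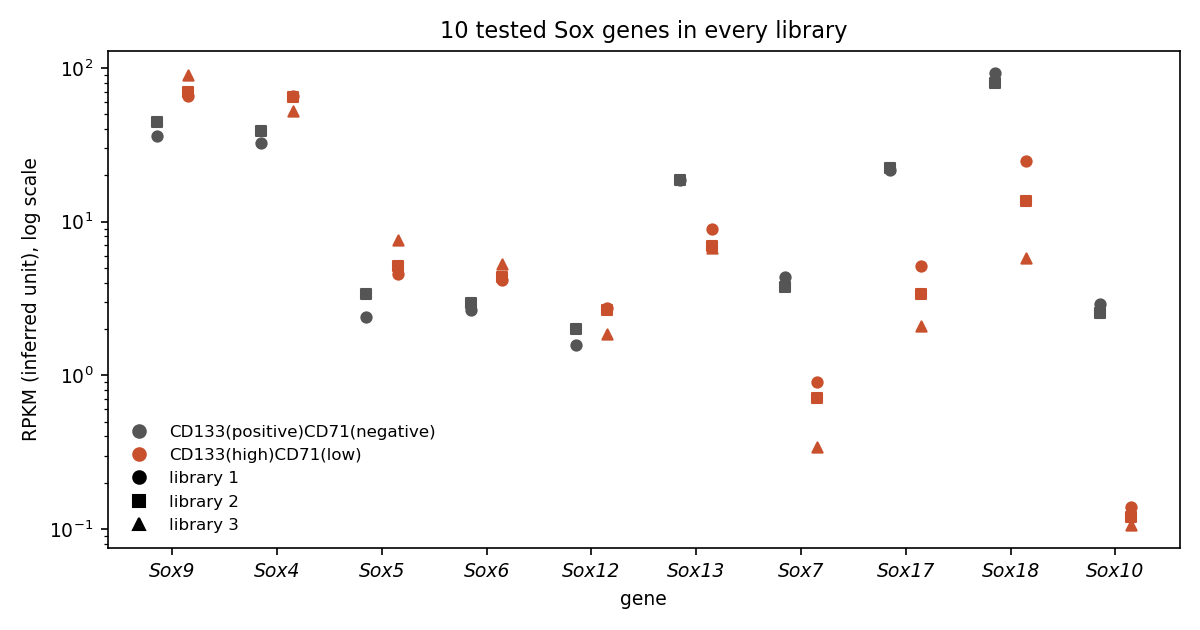
RPKM on a log axis of 10 tested Sox genes in every library, grey for CD133(positive)CD71(negative) and orange for CD133(high)CD71(low), symbols for library numbers. Orange points lie above grey for Sox9, Sox4, Sox5 and Sox6, overlap for Sox12, and lie below grey for Sox13, Sox7, Sox17, Sox18 and Sox10.

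Relatives of the Onecut and Glis genes were few at measurable levels. Of 5 other Onecut and CUT genes 2 were tested: Cux2 rose from 0.97 ± 0.055 to 1.85 ± 0.20 (limma adjusted p = 0.0435), and Cux1 measured 12.7 ± 0.83 and 17.0 ± 3.52. Of 8 other Gli and Glis genes 1 was tested. This was Glis2, which encodes a ciliary zinc finger protein whose loss causes a hereditary kidney disease, and its mean rose from 11.0 ± 0.57 to 21.4 ± 0.53, a log2 difference of 0.90 (SE 0.11, limma adjusted p = 0.00712). Gli1, Gli2 and Gli3, the effectors of Hedgehog signaling, were at 0.17 RPKM or less in every library.

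Among 28 other transcription factors of the pancreatic epithelium 22 were tested, and 5 rose and 0 fell (limma, 10 and 0 at an unadjusted p under 0.05). Over all genes tested 6.25% were called higher and 7.22% lower. The median log2 fold change of the 22 was 0.44, which lay nearer to the 0.31 of all genes than did the 0.85 of the duct lineage members. Foxa2 (22.1 ± 1.94 to 36.0 ± 2.14) and Gata6 (25.6 ± 3.87 to 42.0 ± 1.22), factors of foregut endoderm, were among those that rose. So were the epithelial factor genes Elf3 (14.2 ± 1.54 to 23.5 ± 1.52) and Grhl2 (9.17 ± 0.47 to 17.9 ± 2.19), the latter a gene of the panel.
Of the acinar factor genes, Ptf1a measured 9.93 ± 0.37 and 7.52 ± 3.16, Rbpjl 23.6 ± 1.66 and 21.5 ± 2.94 and Bhlha15 18.3 ± 3.03 and 16.0 ± 3.85, and none of the 3 passed. The endocrine progenitor factor gene Neurog3 was at 0.51 RPKM or less in every library. Relative to the epithelial panel 0 of the 22 were higher (also at an unadjusted limma p under 0.05) and 7 lower, beside 49.7% of all genes called lower with that scaling.

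Genes known to act downstream of these factors were followed in a list of 17, of which 11 were tested. Of these 5 rose and 1 fell, beside 6.25% of all genes called higher and 7.22% lower. Those that rose included Foxa2, given above, and Pkhd1, Bicc1 and Pkd2, which are among the cystic disease genes of the list. Pkhd1, encoding fibrocystin, measured 22.2 and 24.9 RPKM against 43.7, 44.0 and 50.7. Bicc1, encoding an RNA-binding protein, measured 54.6 and 65.4 against 117.6, 112.7 and 125.9 (log2 fold change 0.98, limma adjusted p = 0.0108). Pkd2, encoding polycystin-2, rose from 21.4 ± 2.99 to 32.0 ± 1.73 (limma adjusted p = 0.0499). Pkd1, encoding polycystin-1, the partner of polycystin-2, lay the other way, at 8.01 and 8.07 against 6.20, 5.76 and 4.71. Its difference of -0.47 did not pass over all 5 libraries (limma adjusted p = 0.0889). Without library 3 Pkd1 passed as lower (limma adjusted p = 0.00748), beside 12.2% of all genes called lower. Cys1, encoding cystin, measured 16.2 and 22.0 against 33.4, 31.4 and 48.9 without passing (limma adjusted p = 0.0602).
Fgfr2, a receptor gene in a feed-forward loop with Sox9 in the pancreas, measured 33.1 and 36.7 RPKM against 65.5, 64.2 and 131.4. It did not pass with library 3 (limma adjusted p = 0.0715) and passed without it (3.33e-05), beside 40.9% of all genes called higher. The gene that fell was Flt4, a lymphatic target of Prox1 that blood endothelium also uses, given above. The cartilage target of Sox9, Col2a1, was at 0.032 RPKM or less in every library.

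Duct epithelial genes, in a list of 15 all of which were tested, gave 10 higher and 0 lower (limma, 13 and 0 at an unadjusted p under 0.05), with a median log2 fold change of 0.80 beside 0.85 for the members. Over all genes tested 6.25% were called higher and 7.22% lower. The 10 were Krt19, Krt8, Krt18, Epcam, Cdh1, Muc1, Pkhd1, Car2, Cldn3 and Cldn7. Of these Epcam, Cdh1, Cldn3 and Cldn7 are also genes of the epithelial panel. Prom1, which encodes the sort marker CD133, is in the list and was among the 13 at an unadjusted p under 0.05. The chosen members and this list were picked with earlier results of these data known, so the counts describe them and do not set them apart from other genes.

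Genes whose profiles lay nearest to each member were listed among 7839 genes with a mean of at least 5 RPKM, by the root-mean-square distance between log2(RPKM + 1) values centred on each gene's mean over the 5 libraries. For Sox9 these were 9930023K05Rik, Qpct, Veph1, Anxa4 and Vegfa, at distances of 0.046 to 0.052. Vegfa, encoding a growth factor for endothelium, measured 55.9 and 69.5 RPKM against 104.4, 101.3 and 131.2. Hhex was the member nearest to Sox9, in place 12 of the 7838 others, and Sox4 the farthest, in place 2838. For Glis3 the nearest were Pkhd1 and Bicc1, at 0.031 each, and Chdh. For Sox4 they were Anxa13, C77080 and Plekha7, at 0.025 to 0.035, and Anxa13, too, was lowest of its group in library 3 (45.9, 43.2 and 35.5 RPKM). Those of Hhex were 1110012J17Rik, Pacsin3 and Cblc, those of Onecut1 Tmem171, 1110012J17Rik and Gm12942, and those of Prox1 Plxnb2, Tmem116 and Ppp2r2b.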

How the data were processed

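RNA was sequenced from 5 libraries of sorted mouse pancreas cells, grouped by sample title. The authors deposited 1 table per library of values by gene symbol. The tool Partek and build mm10 are named per the submitters' processing notes. For the aligner, annotation and versions, nothing is given in the sources used here. The deposited values were taken as RPKM: low values times transcript length fell on steps, with 49.7% to 58.3% of them within 0.05 of whole reads (chance gives 10%), too few for a test on counts. FPKM cannot be told apart. The step finder and the limma fit were tested on simulated data. A row of alignment totals (74.2 M) in library 3 was left out. Its table holds 22522 symbols and the others 18618 each. Replicates differed by 3.63 and 3.10 times the sampling variance between numbered libraries of a group, so none was counted as a duplicate.

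Values were transformed as log2(RPKM + 1), a pseudocount of 1. Genes with a mean of at least 1 were fitted by group in limma 3.58.1 (R 4.3.3), with a trended empirical Bayes prior, at an adjusted p of 0.05. Alternatives were a pseudocount of 0.1, no filter, a filter at 5, scaling by median-of-ratios, quantiles or the epithelial panel, each library left out, a replicate block, and median-of-ratios scaling of the 4 numbered libraries. Panel scaling of these 4 was added after seeing the data. The members and lists were chosen with earlier results of these data known. Named genes are the 7 members, Prom1, Tfrc, called genes of each list or else its 2 highest, and the nearest profiles (5 for Sox9, 3 for others); any other gene named was chosen after its values were seen. A gene that this rule would name is not reported here. Positions are from GENCODE M21. Other software was matplotlib 3.10.9, pandas 2.3.3, numpy 2.4.6 and Python 3.11.15.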

Additional observations from a re-analysis of the deposited data

How the results depend on the processing

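Median log2 fold change of the members stayed above that of all genes in every alternative, by 0.42 to 0.68 with each library left out and by 0.44 to 0.64 otherwise, while the calls did not hold. Median-of-ratios and panel scaling divide each library by 1 factor, which shifts members and all genes nearly alike. Those settings could therefore hardly change this difference and are no check on it. Of 5 members higher, 0 to 6 were called with each library left out, 3 with median-of-ratios scaling, 3 with quantile normalization, 0 with epithelial panel scaling and 0 with panel scaling of the 4 numbered libraries (1 at an unadjusted limma p under 0.05). Members called lower were 0 throughout. Signs turned for Prox1 (-0.036) and Sox4 (-0.077) with panel scaling, and for Prox1 (-0.12) and Sox9 (-0.014) with panel scaling of the 4 libraries, all near 0. Over all genes 735 were higher and 850 lower. The number higher was 312 with median-of-ratios scaling, 1782 with that of the 4 libraries, 27 with panel scaling, 84 with panel scaling of the 4 libraries and 0 to 4785 with each library left out. The number lower was 5893, 9818 and 1933 with panel scaling, panel scaling of the 4 libraries and median-of-ratios scaling of the 4 libraries, 315 with a mean of at least 5 (fewer genes tested), 1729 with no filter (more genes tested) and 154 to 1425 with each library left out. Of the genes of the 6 related lists, 19 were higher and 6 lower. Those higher were 9 with median-of-ratios scaling, 33 with that of the 4 libraries, 0 and 1 with panel scaling of 5 and 4 libraries and 0 to 36 with each library left out. Those lower were 15 and 23 with panel scaling of 5 and 4 libraries, 10 with median-of-ratios scaling of the 4 libraries, 3 with a mean of at least 5 and 0 to 8 with each library left out. The causes were not tested.

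With the replicate block on the 4 numbered libraries 5275 genes were higher and 1543 lower, with 6 members and 37 related genes higher, against 4785, 1425, 6 and 36 in these libraries without it. Same-numbered libraries did not deviate together (r = -0.024 across 11769 genes). This r rests on the 4 numbered libraries alone and cannot show whether same-numbered ones shared mice or a sort. Onecut2, below 1 RPKM, was the one member too low for the main test.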
